A study of Arabidopsis thaliana with 4 samples.

Results

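The nuclear genes for light harvesting and the photosystems were followed through the seed transcriptome of an erf4 mutant of Arabidopsis thaliana. The set holds 45 genes, picked by name and not by measured level, though with earlier results of these data known. Of these, 20 are chlorophyll-binding antenna genes (LHCA and LHCB), 12 encode subunits of photosystem I (PSA) and 10 subunits of photosystem II (PSB). The other 3 are for electron carriers (the plastocyanin genes PETE1 and PETE2, and PETC). All 45 were found among the 33187 identifiers of the expression table. Whole developing seeds were sampled at 7 days post anthesis, with embryos between the torpedo and linear stages. The tested line, erf4, carries the T-DNA insertion SALK_073394 and is called erf4_2 in the sample titles; it gave 2 libraries, and the wild type gave 2. ERF4 is a transcriptional repressor of the ethylene response factor family, and the mutant is represented by this 1 insertion line. Nothing in the labels tells whether replicate libraries were made from different plants; the p-values below therefore rest on library-to-library spread alone, part of which may be technical.

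Levels are TPM, a gene's share of all transcripts in a library corrected for transcript length and scaled to 1000000, so levels of different genes can be set side by side. TPM do not record how many reads stood behind a value, and the depth is therefore unknown. ERF4 itself (AT3G15210) had 34.6 and 41.3 TPM in the erf4 libraries and 38.0 and 33.0 TPM in the wild type. The groups overlapped (log2 fold change 0.09, SE 0.17), so the level of the targeted transcript does not check the genotype labels, and where the insertion lies in the counted transcript was not examined. In what follows, erf4 means the libraries so labelled. Each library had between 20295 and 20630 genes at 1 TPM or more. All 9 markers of embryo, endosperm and seed coat used to check the tissue were detected in all 4 libraries.

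In a chloroplast, antenna proteins of the LHCA and LHCB families hold most of the chlorophyll and pass excitation energy to the reaction centres. Photosystem II takes electrons from water, plastocyanin and the cytochrome complex carry them on, and photosystem I delivers them to ferredoxin. The reaction centre proteins themselves are encoded in the chloroplast, whereas the genes described here are nuclear and their proteins are imported. Arabidopsis embryos are green during seed filling, and their chloroplasts are known to carry out photosynthesis under the light that passes through the silique wall and seed coat.

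Transcripts of the 45 genes were abundant. Ranked by mean TPM over the 4 libraries, 39 stood within the first 500 identifiers and 15 within the first 100. Together they held 4.27% and 3.84% of all TPM in the erf4 libraries, against 3.72% and 3.14% in the wild type. The share was highest in erf4 replicate 1 and lowest in wild type replicate 2, and the genotypes did not overlap. After median-ratio rescaling of the libraries they overlapped, with summed values of 45154 and 35050 in erf4 and 37378 and 31823 in the wild type. In bulk seed RNA, more green tissue and more transcript per green cell cannot be told apart.

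**Figure D1:**
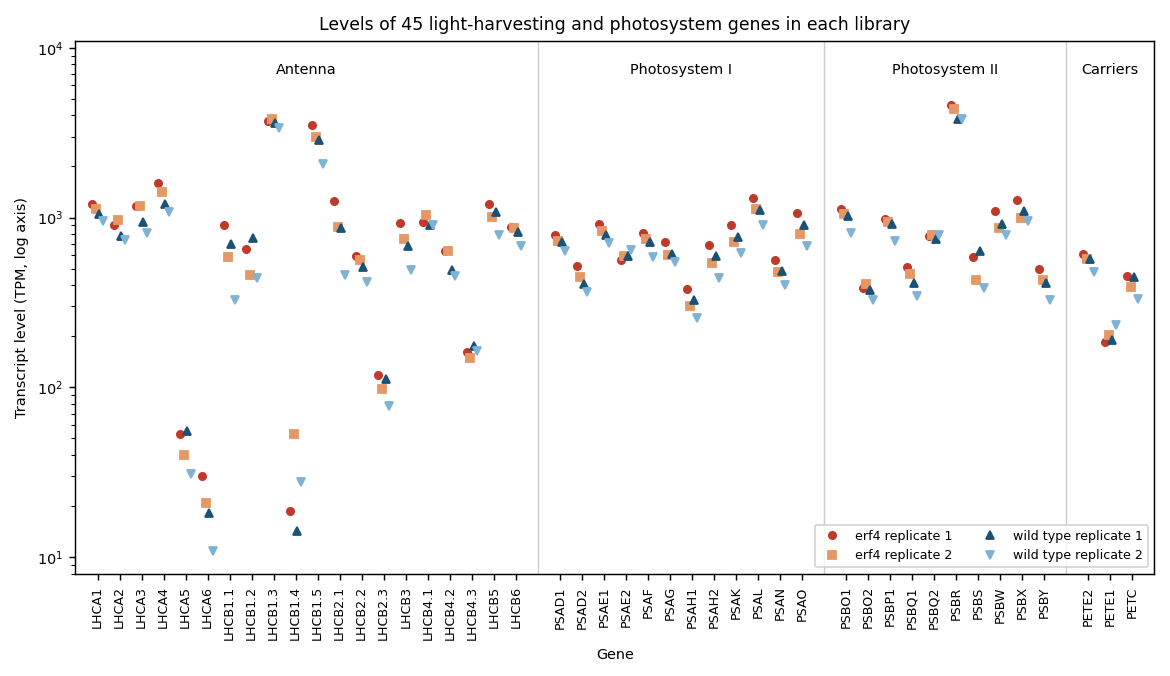
Transcript level (TPM, log axis) of each of the 45 genes, by group; the 4 symbols of a gene are its 2 erf4 libraries (red and orange) and its 2 wild-type libraries (dark and light blue). LHCB1.3, LHCB1.5 and PSBR stand highest, and LHCA5, LHCA6 and LHCB1.4 lie below all others.

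Most of the genes had a slightly higher level in erf4 than in the wild type, and no gene passed the test with genotype as the only term. The log2 fold change was positive for 41 of 45 genes, with a median of 0.23 and a range from -0.12 (LHCB4.3) to 0.79 (LHCA6); over all 20804 genes tested, 55.9% were positive and the median was 0.03. Both erf4 libraries lay above both wild-type libraries for 24 of the 45 genes, where 21.5% of all genes tested did so. Both lay below for 1 gene, LHCB4.3, against 12.2% of all genes tested. The remaining 20 genes overlapped between genotypes. Fold changes and tests come from limma on log2(TPM + 1), with genotype as the only term and Benjamini-Hochberg adjustment over all genes tested. None of the 45 genes reached an adjusted p under 0.05, as was true of all genes tested (0% called); the smallest adjusted p among the 45 was 0.691. At an unadjusted p under 0.05, 2 of the 45 genes were called, LHCB4.2 and LHCA6, beside 6.98% of all genes tested (4.23% higher in erf4). Both had positive fold changes.

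How far the genes stood above the wild type depended on single libraries and on the scaling. Wild type replicate 2 was the lowest of the 4 libraries for 39 of 45 genes, where it was lowest for 31.9% of all genes tested. Without that library the median log2 fold change of the 45 genes was 0.08, and without wild type replicate 1 it was 0.38. Without erf4 replicate 1 the median was 0.16 while that of all genes tested stood at 0.14, and without erf4 replicate 2 the values were 0.33 for the 45 genes and -0.07 for all genes. The count of genes above the wild-type range was 40 without wild type replicate 1 (38.5% of all genes tested), 26 without wild type replicate 2 (31.3%), 25 without erf4 replicate 1 (55.1%) and 37 without erf4 replicate 2 (29.2%). After rescaling the libraries by their median ratio over genes, 9 of the 45 genes lay above the wild-type range, all of them among the 24, beside 18.2% of all genes tested. After quantile normalization 19 did, 17 of them among the 24, beside 19.3% of all genes tested. The 9 genes, a count near the share of all genes tested, were LHCA2, LHCA3, LHCA4, LHCA6, LHCB4.1, LHCB4.2, PSAD2, PSBQ1 and PSBR. By group they were 6 of 20 antenna, 1 of 12 photosystem I, 2 of 10 photosystem II and 0 of 3 carrier genes. These small counts were not tested against each other.

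**Figure D2:**
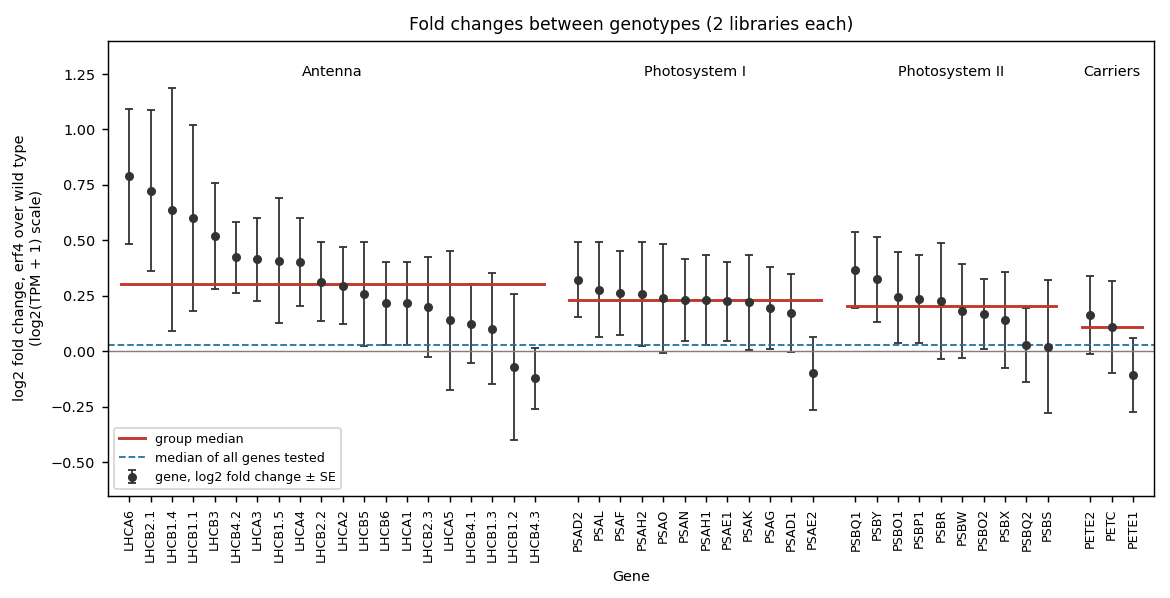
The log2 fold change of each gene, erf4 over wild type, with its standard error, sorted within each group; red lines mark group medians and the dashed line the median of all genes tested (0.03). Antenna genes spread from -0.12 to 0.79, whereas 11 of the 12 photosystem I genes lie between 0.17 and 0.32.

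The antenna genes had the highest group median and the widest spread with all 4 libraries. Their median log2 fold change was 0.31, and 18 of 20 values were above 0. For 13 genes both erf4 libraries exceeded both wild-type libraries, where 21.5% of all genes tested did so. The antenna median was 0.16 without wild type replicate 2, 0.47 without wild type replicate 1 and 0.29 without erf4 replicate 1. Without erf4 replicate 2 it was 0.35, below the photosystem I median of 0.37. The antenna of photosystem I is built from LHCA1 to LHCA4, which form a belt on one side of the core. LHCA4 (AT3G47470) had 1594 and 1423 TPM in erf4 against 1200 and 1084 TPM in the wild type (log2 fold change 0.40, SE 0.20). LHCA3 (AT1G61520) had 1169 and 1164 TPM in erf4 against 943 and 811 TPM in the wild type (0.42, SE 0.19). In both genes the erf4 libraries lay clear of the wild type, and the 2 erf4 libraries of LHCA3 were nearly equal. LHCA1 (AT3G54890) and LHCA2 (AT3G61470) also lay above the wild-type range, at log2 fold changes of 0.22 and 0.30.

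LHCA5 and LHCA6 are minor antenna proteins that join photosystem I to the chloroplast NADH dehydrogenase-like complex. LHCA6 (AT1G19150), the gene with the highest log2 fold change of the set (0.79, SE 0.30), had 30.1 and 21.0 TPM in erf4 against 18.2 and 10.9 TPM in the wild type. Its 95% confidence interval ran from 0.02 to 1.56, its unadjusted p was 0.0467 and its adjusted p by limma 0.709. Leaving out 1 library moved its log2 fold change to between 0.44 and 1.13. LHCA5 (AT1G45474) had 53.0 and 39.8 TPM in erf4 against 55.6 and 31.0 TPM in the wild type, and its groups overlapped. Summed over the 6 LHCA genes, erf4 had 4952 and 4727 TPM and the wild type 4041 and 3627 TPM.

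LHCB1, LHCB2 and LHCB3 form the trimers of the main antenna of photosystem II, LHCII. LHCB3 (AT5G54270) had 927 and 743 TPM in erf4 against 681 and 492 TPM in the wild type (log2 fold change 0.52, SE 0.24). LHCB2.1 (AT2G05100) had 1247 and 874 TPM in erf4 against 864 and 462 TPM in the wild type (0.72, SE 0.36). LHCB2.2 (AT2G05070) had 591 and 560 TPM in erf4 against 511 and 419 TPM in the wild type (0.31, SE 0.18). For these 3 genes each erf4 library lay above both wild-type libraries, but the 2 wild-type libraries differed widely. The log2 ratio of wild type replicate 1 to replicate 2 was 0.90 for LHCB2.1 and 0.47 for LHCB3. With 1 library left out, the log2 fold change ran from 0.27 to 1.18 for LHCB2.1, from 0.17 to 0.46 for LHCB2.2 and from 0.28 to 0.75 for LHCB3. LHCB2.3 (AT3G27690), the least abundant of its family, had 119 and 97.7 TPM in erf4 and 113 and 78.0 TPM in the wild type, with overlap.

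The 5 LHCB1 genes encode nearly the same protein but differed widely in level. LHCB1.3 (AT1G29930) had 3705 and 3792 TPM in erf4 against 3611 and 3376 TPM in the wild type (log2 fold change 0.10, SE 0.25). LHCB1.5 (AT2G34420) had 3501 and 3000 TPM in erf4 against 2881 and 2067 TPM in the wild type (0.41, SE 0.28). These were the leading members of the family, and both lay above the wild-type range. With 1 library left out, the log2 fold change of LHCB1.5 ran from 0.17 to 0.65. LHCB1.1 (AT1G29920) had 899 and 588 TPM in erf4 against 701 and 327 TPM in the wild type. LHCB1.2 (AT1G29910) had 657 and 461 TPM in erf4 against 759 and 441 TPM in the wild type. LHCB1.4 (AT2G34430) had 18.6 and 53.1 TPM in erf4 against 14.3 and 27.6 TPM in the wild type. The groups of LHCB1.1, LHCB1.2 and LHCB1.4 overlapped, and LHCB1.4 was higher in replicate 2 than in replicate 1 of both genotypes.

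LHCB1.1, LHCB1.2 and LHCB1.3 lie next to each other on chromosome 1 with no protein-coding gene between them. Their coding sequences of 804 bases are 95.6% to 96.4% identical, and 47 positions differ among them. The stretch from coding base 25 to 84 (RefSeq TAIR10.1, coding strand), in the part for the transit peptide, is shown because no other window of this length starting at a codon holds more such positions; its 8 are in capitals.
LHCB1.1: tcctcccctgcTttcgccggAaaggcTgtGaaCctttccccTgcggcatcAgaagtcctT
LHCB1.2: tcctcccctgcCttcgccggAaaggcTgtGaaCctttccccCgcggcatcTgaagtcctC
LHCB1.3: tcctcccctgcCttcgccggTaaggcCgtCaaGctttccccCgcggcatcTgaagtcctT
Between LHCB1.1 and LHCB1.3 the longest stretch of coding sequence without a difference was 119 bases, and it was 122 bases between LHCB1.4 and LHCB1.5 and 137 bases between LHCB2.1 and LHCB2.2. A short read from such a stretch can be assigned to either copy, so the single values of these genes are less certain than their sums. The LHCB1 sum was 8780 and 7895 TPM in erf4 and 7966 and 6239 TPM in the wild type, with overlap. The LHCB2 sum was 1957 and 1532 TPM in erf4 and 1487 and 958 TPM in the wild type, with no overlap unless the libraries were rescaled by their median ratio.

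The minor antenna proteins LHCB4, LHCB5 and LHCB6 sit as single units between the LHCII trimers and the core of photosystem II. LHCB4.2 (AT3G08940) had the smallest p of the whole set. It had 638 and 632 TPM in erf4 against 494 and 453 TPM in the wild type (log2 fold change 0.42, SE 0.16, 95% confidence interval 0.02 to 0.83; unadjusted p = 0.0426, adjusted p = 0.691 by limma). Replicates of LHCB4.2 were close in both genotypes, and its log2 fold change stayed between 0.36 and 0.49 with any one library left out. LHCB4.1 (AT5G01530) had 942 and 1036 TPM in erf4 against 906 and 907 TPM in the wild type. LHCB4.3 (AT2G40100) had 161 and 150 TPM in erf4 against 174 and 164 TPM in the wild type, and was the gene with both erf4 libraries below the wild type. LHCB5 (AT4G10340) and LHCB6 (AT1G15820) had log2 fold changes of 0.26 and 0.22, and of these LHCB6 lay above the wild-type range.

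The median log2 fold change of the photosystem I genes was 0.23, with an SD of 0.11 across the 12 genes, as among the photosystem II genes (0.11). Of the 12 values, 11 were above 0. Above the wild-type range lay 5 genes (21.5% of all genes tested), none lay below it (12.2%), and 7 overlapped. PSAE2 stood apart at -0.10; the other 11 values ran from 0.17 to 0.32, while the standard error of each was 0.17 to 0.25. Wild type replicate 2 was the lowest library for all 11. The group median was 0.09 without wild type replicate 2, 0.10 without erf4 replicate 1 (all genes tested 0.14), 0.37 without erf4 replicate 2 and 0.39 without wild type replicate 1.

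PSAD and PSAE form the side of photosystem I where ferredoxin docks, and each has a pair of genes. PSAD2 (AT1G03130) had 518 and 449 TPM in erf4 against 407 and 364 TPM in the wild type (log2 fold change 0.32, SE 0.17). PSAD1 (AT4G02770) had 793 and 726 TPM in erf4 against 715 and 633 TPM in the wild type. Both lay above the wild-type range. PSAE1 (AT4G28750) had 920 and 834 TPM in erf4 against 789 and 711 TPM in the wild type (0.22, SE 0.18). PSAE2 (AT2G20260) went the other way in value, with 560 and 592 TPM in erf4 against 592 and 643 TPM in the wild type (-0.10, SE 0.16). Its groups overlapped, with erf4 replicate 2 and wild type replicate 1 nearly equal.

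PSAL, PSAH and PSAO lie where LHCII binds during state transitions. PSAL (AT4G12800), the most abundant gene of the group, had 1304 and 1125 TPM in erf4 against 1110 and 898 TPM in the wild type (log2 fold change 0.28, SE 0.21). PSAH1 (AT3G16140), the least abundant, had 381 and 302 TPM in erf4 against 325 and 256 TPM in the wild type. PSAL lay above the wild-type range and PSAH1 overlapped. PSAH2 (AT1G52230) and PSAO (AT1G08380) had log2 fold changes of 0.26 and 0.24, with overlap. PSAF (AT1G31330), which helps plastocyanin to dock, had 816 and 743 TPM in erf4 against 718 and 587 TPM in the wild type, above its range. PSAG (AT1G55670) and PSAK (AT1G30380), small membrane subunits at the edge of the core, and PSAN (AT5G64040), a subunit on the lumen side, had log2 fold changes of 0.20, 0.22 and 0.23, with overlap.

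A photosystem I complex holds each subunit once, and the transcripts of the 9 nuclear subunits, summed over copies, can be set against that. The lowest was N in each library, with 563 and 476 TPM in erf4 and 482 and 402 TPM in the wild type. The highest was E, with 1480 and 1426 TPM in erf4 and 1381 and 1354 TPM in the wild type. The highest subunit was thus 2.63 and 3.0 times the lowest in erf4, and 2.87 and 3.37 times in the wild type. The ratio of the genotype means, erf4 over wild type, was 1.06 for E and between 1.15 and 1.21 for the other 8 subunits.

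Photosystem II genes had a median log2 fold change of 0.20, and each of the 10 values was above 0. In 6 of the genes both erf4 libraries exceeded both wild-type libraries, where 21.5% of all genes tested did so. The median was 0.07 without wild type replicate 2, 0.34 without wild type replicate 1, 0.28 without erf4 replicate 2 and 0.19 without erf4 replicate 1. After median-ratio rescaling 8 of the 10 were positive, and 2 lay above the range, beside 18.2% of all genes tested. PSBO, PSBP and PSBQ are the extrinsic proteins that protect the manganese cluster, where water is split. PSBO1 (AT5G66570) had 1120 and 1042 TPM in erf4 against 1023 and 814 TPM in the wild type. PSBO2 (AT3G50820) had 385 and 405 TPM in erf4 against 376 and 328 TPM in the wild type. PSBP1 (AT1G06680) had 978 and 948 TPM in erf4 against 915 and 731 TPM in the wild type. In each of these genes both erf4 libraries lay above the wild type, the lower one by a small margin.

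PSBQ1 (AT4G21280) had 512 and 465 TPM in erf4 against 412 and 347 TPM in the wild type (log2 fold change 0.37, SE 0.17; adjusted p = 0.797 by limma). PSBQ2 (AT4G05180), the more abundant copy, had 780 and 787 TPM in erf4 against 744 and 794 TPM in the wild type (0.03, SE 0.17). The erf4 libraries of PSBQ1 were clear of the wild type, whereas those of PSBQ2 lay inside its range. PSBR (AT1G79040), a small protein that helps the extrinsic proteins to bind, was the most abundant transcript of all 45, with 4577 and 4347 TPM in erf4 against 3815 and 3810 TPM in the wild type. The replicates of PSBR were close together and the genotypes apart; its log2 fold change was 0.23 (SE 0.26). PSBS (AT1G44575), the sensor of thermal energy dissipation, had 585 and 429 TPM in erf4 against 632 and 386 TPM in the wild type (0.02, SE 0.30), with more difference between replicates than between genotypes. PSBY (AT1G67740), with 496 and 428 TPM in erf4 against 413 and 327 TPM in the wild type, lay above the range (0.33, SE 0.19). The other small membrane subunits, PSBW (AT2G30570) and PSBX (AT2G06520), overlapped, at 0.18 and 0.14.

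The genes for mobile and cytochrome-bound carriers had the lowest group median, a log2 fold change of 0.11. PETE2 (AT1G20340), the main plastocyanin gene here, had 606 and 568 TPM in erf4 against 572 and 479 TPM in the wild type (log2 fold change 0.16, SE 0.18). PETE1 (AT1G76100), the other plastocyanin gene, had 186 and 203 TPM in erf4 against 189 and 232 TPM in the wild type (-0.11, SE 0.17). PETC (AT4G03280), for the Rieske iron-sulfur protein, had 450 and 389 TPM in erf4 against 450 and 334 TPM in the wild type (0.11, SE 0.21). All 3 overlapped between genotypes.

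Summed within each group, the antenna had a higher ratio of erf4 to wild type than either photosystem, a difference that was not tested. The antenna genes summed to 20442 and 18592 TPM in erf4 and to 17650 and 14314 TPM in the wild type, a ratio of means of 1.22. Photosystem I genes summed to 9235 and 7913 TPM in erf4 and to 8017 and 6778 TPM in the wild type, a ratio of 1.16. Photosystem II genes summed to 11793 and 10712 TPM in erf4 and to 10342 and 9284 TPM in the wild type, a ratio of 1.15. The genotypes did not overlap for the antenna and for photosystem II, and overlapped for photosystem I. After median-ratio rescaling they overlapped for all 3 groups, with erf4 replicate 2 below wild type replicate 1. Carriers summed to 1242 and 1160 TPM in erf4 and to 1210 and 1045 TPM in the wild type, with overlap.

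**Figure D3:**
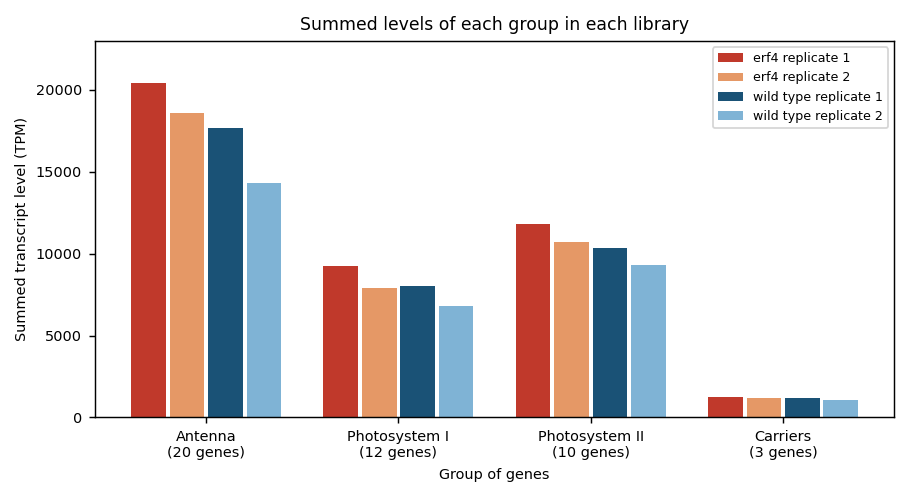
Summed TPM of each group of genes in each library, erf4 libraries in red and orange and wild-type libraries in blue; axis from 0. Antenna genes reach 20442 TPM in erf4 replicate 1, against 14314 TPM in wild type replicate 2, and carriers differ little between libraries.

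Ratios between the groups do not change with the scaling of a library, and they differed little between genotypes. Antenna over photosystem I was 2.21 and 2.35 in erf4 and 2.20 and 2.11 in the wild type. Antenna over photosystem II was 1.73 and 1.74 in erf4 and 1.71 and 1.54 in the wild type. In both ratios erf4 lay above the wild type, with erf4 replicate 1 close to wild type replicate 1. Photosystem II over photosystem I was 1.28 and 1.35 in erf4 and 1.29 and 1.37 in the wild type, with overlap. None of these ratios was tested, because the smallest p of an exact permutation test (two-sided) on 4 libraries is 0.33. The LHCA genes over the photosystem I subunits gave 0.536 and 0.597 in erf4 and 0.504 and 0.535 in the wild type.

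**Figure D4:**
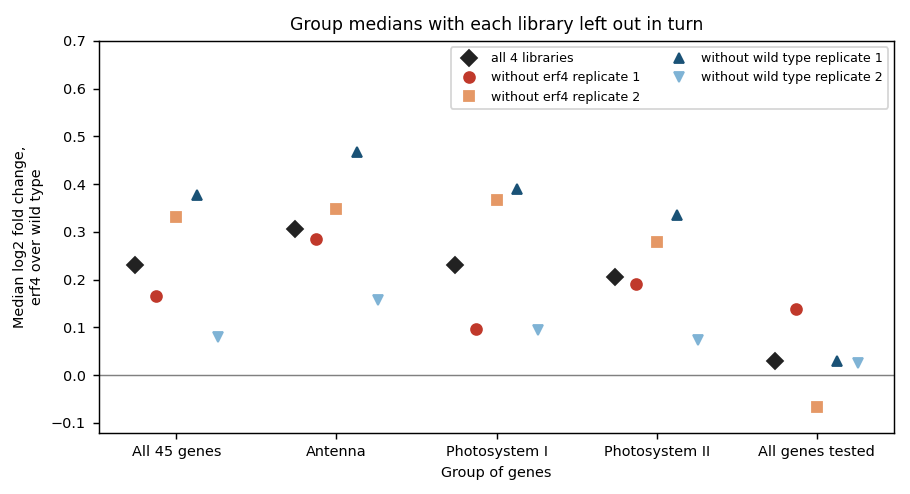
Median log2 fold change (erf4 over wild type) of the 45 genes, 3 of their groups and all genes tested, with all 4 libraries (diamonds) and with each library left out in turn. Medians of the 45 genes run from 0.08 without wild type replicate 2 to 0.38 without wild type replicate 1, and those of all genes tested from -0.07 to 0.14.

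Within families of close copies, the share of each copy in its family's TPM is also free of library scaling. LHCB4.2 made up 36.6% and 34.8% of LHCB4 transcripts in erf4 and 31.4% and 29.7% in the wild type. LHCB4.1 made up 54.1% and 57.0% in erf4 and 57.6% and 59.5% in the wild type, and LHCB4.3 made up 9.23% and 8.24% in erf4 and 11.1% and 10.7% in the wild type. The genotypes did not overlap in any of the 3 shares, which together make up the family and so are not independent. PSAE1 made up 62.2% and 58.5% of PSAE transcripts in erf4 and 57.2% and 52.5% in the wild type. PSBQ1 made up 39.6% and 37.1% of PSBQ transcripts in erf4 and 35.6% and 30.4% in the wild type. PSAD2 made up 39.5% and 38.2% of PSAD transcripts in erf4 and 36.3% and 36.5% in the wild type. In these pairs the genotypes did not overlap, although the nearest libraries were close. LHCB1.5 made up 39.9% and 38.0% of LHCB1 transcripts in erf4 and 36.2% and 33.1% in the wild type, while LHCB1.3 made up 42.2% and 48.0% in erf4 and 45.3% and 54.1% in the wild type, with overlap. LHCB2.3 made up 6.08% and 6.38% of LHCB2 transcripts in erf4 and 7.57% and 8.14% in the wild type. Shares of the PSAH, PSBO and plastocyanin copies overlapped; PSAH2, for example, made up 64.4% and 64.2% in erf4 and 64.6% and 63.1% in the wild type. These shares were not tested, and none were computed for other gene families, so the separated copies cannot be set against a background.

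**Figure D5:**
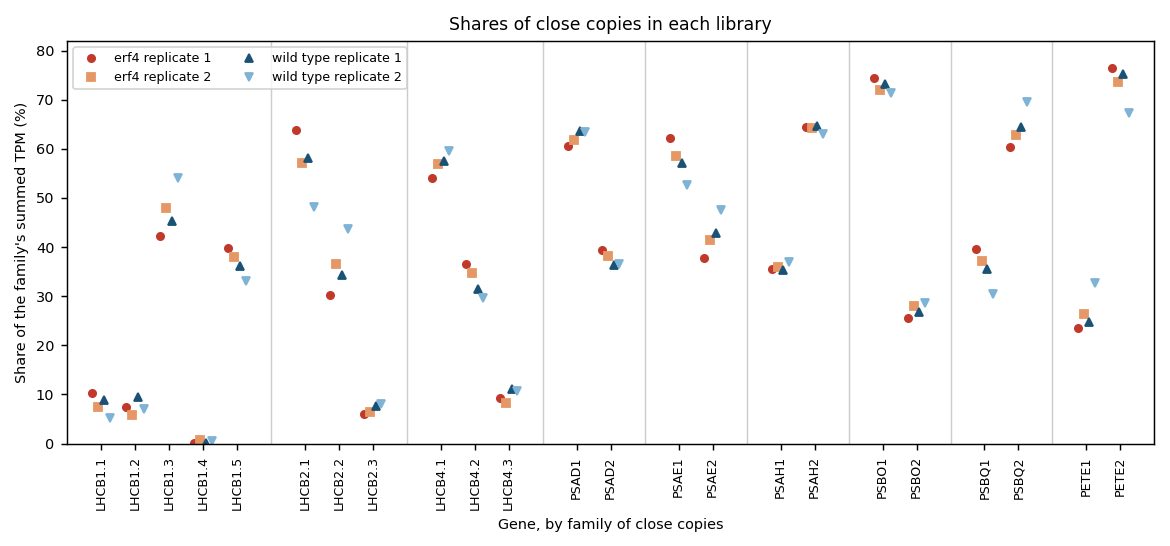
Share (%) of each copy in the summed TPM of its family, in the 2 erf4 libraries (red and orange) and the 2 wild-type libraries (blue). LHCB4.2, PSAE1, PSBQ1 and PSAD2 lie higher in both erf4 libraries than in both wild-type libraries, and the PSAH and PSBO copies overlap.

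Promoters of the 45 genes were searched for short elements known from light-regulated genes, in the 250 bases before each annotated start, on both strands. CCAATC has been proposed as an element of GLK factors, which activate antenna genes. The element was present in 10 of 20 antenna, 0 of 12 photosystem I, 1 of 10 photosystem II and 2 of 3 carrier promoters. It was present in 10.4% of the promoters of all nuclear protein-coding genes tested. The antenna genes with it were LHCA1, LHCA3, LHCA4, LHCB1.3, LHCB1.5, LHCB2.1, LHCB2.2, LHCB2.3, LHCB4.1 and LHCB4.2. Their median log2 fold change was 0.36, against 0.28 in the 10 antenna genes without it. The values ran from 0.10 to 0.72 with it and from -0.12 to 0.79 without it. The genes with it were also more abundant (median of mean TPM 985 against 604), and the difference in fold change was not tested. The G-box CACGTG was present in 8 of 45 promoters (7.49% of those of all genes tested), the I-box GATAAG in 11 (12.5%), the CCA1 element AAAAATCT or AACAATCT in 6 (8.75%) and TATAAA in 21 (46.4%). A match describes the letters of the window and does not show that a factor binds there.

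A few promoters are shown because they carry these contrasts: the 3 neighbouring LHCB1 copies, whose coding sequences are nearly alike but whose levels and elements differ, LHCB4.2 and LHCA4 with CCAATC, and PSAO from photosystem I without it. Sequences are from RefSeq TAIR10.1, 5′ to 3′ on the gene's strand, ending at the base before the annotated start and cut where another annotated gene begins. Capitals mark the searched elements on either strand.
LHCB1.1 (chr1:10475970-10476219, minus strand): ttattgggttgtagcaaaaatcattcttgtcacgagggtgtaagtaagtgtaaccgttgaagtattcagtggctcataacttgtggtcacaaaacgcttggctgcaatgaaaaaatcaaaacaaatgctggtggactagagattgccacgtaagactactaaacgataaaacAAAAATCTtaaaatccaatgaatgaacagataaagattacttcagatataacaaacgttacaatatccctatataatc
LHCB1.2 (chr1:10473503-10473752, minus strand): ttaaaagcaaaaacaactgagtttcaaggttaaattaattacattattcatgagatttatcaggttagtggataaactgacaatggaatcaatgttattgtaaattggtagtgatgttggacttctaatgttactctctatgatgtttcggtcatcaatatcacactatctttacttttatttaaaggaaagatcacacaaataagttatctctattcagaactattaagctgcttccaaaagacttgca
LHCB1.3 (chr1:10477635-10477884, plus strand): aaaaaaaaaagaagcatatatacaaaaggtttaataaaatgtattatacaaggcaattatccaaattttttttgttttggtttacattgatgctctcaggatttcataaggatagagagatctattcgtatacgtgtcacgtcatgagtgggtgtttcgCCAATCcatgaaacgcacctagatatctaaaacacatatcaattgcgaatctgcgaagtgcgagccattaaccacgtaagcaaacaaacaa
LHCB4.2 (chr3:2717367-2717556, plus strand): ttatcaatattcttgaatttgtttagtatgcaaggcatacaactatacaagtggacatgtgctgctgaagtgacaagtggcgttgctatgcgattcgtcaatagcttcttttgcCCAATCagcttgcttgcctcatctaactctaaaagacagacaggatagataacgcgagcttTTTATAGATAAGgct
LHCA4 (chr3:17495034-17495283, minus strand): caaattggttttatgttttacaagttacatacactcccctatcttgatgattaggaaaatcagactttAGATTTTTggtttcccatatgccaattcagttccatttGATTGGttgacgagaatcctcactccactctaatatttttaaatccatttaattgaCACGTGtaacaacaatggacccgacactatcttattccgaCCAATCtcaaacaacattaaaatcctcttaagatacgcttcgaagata
PSAO (chr1:2641935-2642071, minus strand): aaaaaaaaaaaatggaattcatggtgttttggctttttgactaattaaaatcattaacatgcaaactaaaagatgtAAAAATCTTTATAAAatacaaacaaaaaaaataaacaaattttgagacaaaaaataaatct
LHCB1.3, the most abundant of the 3 copies, has CCAATC starting 91 bases before its start, and LHCB1.1 has a CCA1 element starting 78 bases before. LHCB1.2 has none of the searched elements in this window, and a link between elements and levels was not tested. LHCA4 has CCAATC on both strands, starting 144 and 48 bases before its start, with a G-box between them. In LHCB4.2 the capital run nearest the start is a TATAAA match on the other strand with an I-box directly after it. In PSAO the capital run joins a CCA1 element and a TATAAA match on each strand, which overlap.

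Other genes of the pathway gave mixed values, and none was called. Of 15 chlorophyll synthesis genes tested (of 16 listed), none was called, 11 had a positive log2 fold change, and the median was 0.07. CHLH (AT5G13630), a subunit of magnesium chelatase, and PORC (AT1G03630), a protochlorophyllide reductase, both stood at 0.29. Of 6 chlorophyll breakdown genes, none was called and 2 were positive (median -0.05), with the chlorophyll b reductase gene NOL (AT5G04900) at -0.17. Of 12 genes for LHC insertion and photosystem assembly, none was called and 8 were positive (median 0.07); HCF136 (AT5G23120), an assembly factor of photosystem II, stood at 0.37 (SE 0.14). The list of 7 genes for ferredoxin, its reductase and the ATP synthase had a median of 0.18, with 6 positive and ATPC1 (AT4G04640), for the gamma subunit of the synthase, at 0.29. Of 9 genes for state transitions and photoprotection, none was called and 8 were positive (median 0.30), with ZEP (AT5G67030), the zeaxanthin epoxidase, at 0.75 (SE 0.49) and STN7 (AT1G68830), the kinase of LHCII, at 0.46 (SE 0.38).

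Among 13 regulators of photosynthesis genes, none was called, 8 were positive and the median was 0.03. GLK2 (AT5G44190) and GLK1 (AT2G20570), the pair of factors known to activate antenna genes, stood at 0.26 (SE 0.18) and -0.27 (SE 0.27). GLK2 had 35.5 and 38.7 TPM in erf4 against 27.4 and 34.7 TPM in the wild type, just above the wild-type range. The chloroplast-encoded partners of these proteins were listed at low values, with a sum over 13 genes of 46.4 and 49.2 TPM in erf4 and of 50.2 and 46.1 TPM in the wild type. Of the 9 tested, none was called and 5 were positive, with psbE (ATCG00580), for a cytochrome subunit of photosystem II, at 4.35 and 5.03 TPM in erf4 against 2.64 and 1.74 TPM in the wild type. The genes psbF and psbH were listed at 0 in all 4 libraries, and psaC in 3 of them. These are genes of every green cell, and without read counts a listed 0 can be a failed estimate, so the values do not give the expression of the chloroplast genome; the part of library preparation or counting was not tested.

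Markers of the silique wall and leaf, green tissue that could come along with collected seeds, were measurable in all libraries. Of 9 such genes, 5 lay above the wild-type range, 2 below it and 2 overlapped, and none was called. For comparison, 21.5% of all genes tested stood higher in both erf4 libraries, and 12.2% stood lower in both. By limma, 2 of the 9 (TGG2 and SHP1) had an unadjusted p under 0.05, against 6.98% of all genes tested. The sum over the 9 genes was 1304 and 966 TPM in erf4 and 915 and 924 TPM in the wild type. TGG2 (AT5G25980), a myrosinase of leaf and silique, had 275 and 266 TPM in erf4 against 211 and 175 TPM in the wild type, and SHP1 (AT3G58780), of the valve margin and also of ovules, had 92.4 and 106 TPM in erf4 against 75.4 and 77.8 TPM in the wild type. FIL (AT2G45190), a gene of the outer side of lateral organs, had 29.5 and 29.3 TPM in erf4 against 37.0 and 33.6 TPM in the wild type. None of the 9 was at 0, and their part in the levels of the 45 genes was not tested.

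Markers of the seed's own tissues also differed in value between the genotypes. Of 9 genes, 5 lay above the wild-type range, 3 below it and 1 overlapped. Of all genes tested, 21.5% lay above and 12.2% below. None of the 9 was called, and 7 had an unadjusted p under 0.05 by limma, against 6.98% of all genes tested. The sum over the 9 genes was 1995 and 1764 TPM in erf4 and 2369 and 2027 TPM in the wild type. EPR1 (AT2G27380), an endosperm gene, had 779 and 633 TPM in erf4 against 1530 and 1189 TPM in the wild type. PRX36 (AT3G50990), a peroxidase of the seed coat, had 366 and 170 TPM in erf4 against 81.1 and 74.7 TPM in the wild type. LEC1 (AT1G21970), a regulator of embryo development, had 118 and 110 TPM in erf4 against 74.0 and 78.2 TPM in the wild type. The other embryo regulators on the list lay below the wild-type range: FUS3 (AT3G26790) had 63.4 and 115 TPM in erf4 against 145 and 175 TPM in the wild type (log2 fold change -0.89, SE 0.30). ABI3 (AT3G24650) had 20.4 and 29.9 TPM in erf4 against 37.1 and 35.3 TPM in the wild type (-0.53, SE 0.22). In all 5 the libraries of the genotypes lay apart, and PHE1 (AT1G65330), an imprinted endosperm gene, stood at a log2 fold change of 1.26 (SE 0.24; adjusted p = 0.461 by limma). Whether differences in tissue makeup or stage went with the levels of the 45 genes was not tested.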

How the data were processed

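The sequenced libraries, 2 per genotype, were made from total RNA of developing seeds. The authors deposited TPM per gene for 33187 identifiers, scaled to 1000000 in each library. Per the submitters' processing notes, fastp, HISAT and RSEM were used; their versions, the build and the strand setting were not given in the sources used here. Columns of genotype means in the table were not used. Groups and replicate numbers follow the sample titles.

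Genes reaching 1 TPM in at least 2 libraries (20804, with all 45 members) entered a limma 3.58.1 fit (R 4.3.3) of log2(TPM + 1) on genotype, using a trended variance and two-sided tests. P-values were adjusted by Benjamini-Hochberg over all genes tested, with a threshold of 0.05. The added 1 TPM shrinks the fold changes of low genes. The procedure was tested on simulated data. Members, lists, motifs and alternatives were chosen with earlier results of these data known, so groups and lists are described by counts and medians beside those of all genes. Every member is accounted for; of each other list at most 4 genes with the smallest p are named, except FUS3, ABI3, ELIP1, HYH and the plastid genes listed at 0, named after their values were seen.

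All 45 loci matched RefSeq TAIR10.1, which gave the sequences and motif windows (Biopython 1.88 for alignments). In that annotation 17 of the 45 genes overlap another gene, LHCB1.5 (AT2G34420) along its whole length, and without a known strand setting their reads may not be told apart.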

Additional observations from a re-analysis of the deposited data

How the results depend on the processing

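The alternatives were other pseudocounts, filters, scalings and variance models, a replicate block, and leaving out each library. The median log2 fold change of the 45 genes, the antenna and both photosystems was positive in all of them. Without erf4 replicate 1, however, the median of all genes tested was 0.14, above that of photosystem I (0.096). With the replicate block, limma called 1083 of all genes, against 0 without it, and 4 of the 45 (adjusted p = 0.0311 for LHCA6, 0.0263 for LHCB1.1, 0.00774 for LHCB2.1 and 0.0326 for LHCB3). The labels do not pair the libraries, and deviations of same-numbered libraries correlated at 0.35 over all genes and at 0.87 over the 45. With 2 libraries a genotype, the sign of such a correlation depends on how the libraries are numbered, so it cannot establish a pairing. Leaving out 1 library, the genes called ranged from 0 to 204 (204 without wild type replicate 1, 49 without wild type replicate 2), none of them among the 45. The photosystem I median ranged from 0.094 to 0.39, the photosystem II median from 0.074 to 0.34, and the count above the wild-type range from 25 to 40. That count was 9 after median-ratio rescaling. PSBQ2 turned to -0.0097 and PSBS to -0.016 after that rescaling, and PSBQ2 to -0.054 and PSBS to -0.0030 after quantile normalization. With 1 library left out, log2 fold changes that changed sign ranged from -0.27 to 0.55 for LHCA5, -0.46 to 0.32 for LHCB1.2, -0.092 to 1.37 for LHCB1.4, -0.062 to 0.46 for LHCB2.3, -0.020 to 0.075 for PSBQ2, -0.33 to 0.38 for PSBS, -0.035 to 0.31 for PSBX, -0.25 to 0.041 for PETE1 and -0.10 to 0.33 for PETC. Outside the 45 they ranged from -0.066 to 0.73 for HCF244, -0.050 to 0.40 for FD2, -0.57 to 0.043 for GLK1, -0.78 to 0.10 for PIF1, -0.054 to 0.97 for STN7, -1.04 to 1.65 for ELIP1, -0.47 to 1.19 for HYH and -0.034 to 0.22 for ERF4. The rescaled sums in the report were an alternative chosen after seeing the data. A genotype left with 1 library is assumed to vary like the other. The causes were not tested. With 2 libraries a genotype and no read counts, small differences could not be resolved.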

Other observations

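The same genes also differed between the replicates of a genotype. For 37 of the 45 genes replicate 1 was above replicate 2 in both genotypes, as was true of 21% of all genes tested and of 34.6% of the 231 other genes at least as abundant as the lower quartile of the 45. The median log2 ratio of replicate 1 to replicate 2 was 0.16 in erf4 and 0.26 in the wild type for the 45 genes, and -0.18 in erf4 and 0.01 in the wild type for all genes tested. LHCB1.1 had log2 ratios of 0.61 in erf4 and 1.1 in the wild type, and PSBS had 0.45 in erf4 and 0.71 in the wild type, each larger than the gene's log2 fold change between genotypes.

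The pattern was not limited to the 45 genes, but it differed between the lists of other photosynthesis-related genes. Replicate 1 was above replicate 2 in both genotypes for 6 of 9 genes for state transitions and photoprotection. It was so for 5 of 7 genes for ferredoxin, its reductase and the ATP synthase, and for 5 of 9 chloroplast-encoded genes. Fewer showed it in chlorophyll synthesis (1 of 15) and breakdown (2 of 6), assembly (3 of 12) and the regulators (3 of 13). From these lists, 3 genes are given as examples, chosen after their values were seen. ELIP1 (AT3G22840), an early light-induced protein, had 36.7 and 15.1 TPM in erf4 against 49.6 and 6.86 TPM in the wild type. HYH (AT3G17609), a homologue of the light-signalling factor HY5, had 6.64 and 3.15 TPM in erf4 against 6.78 and 1.46 TPM in the wild type. ZEP had 70.0 and 45.4 TPM in erf4 against 54.7 and 20.1 TPM in the wild type. In each, replicate 2 was the lower library in both genotypes. The log2 fold change between genotypes was larger than both replicate differences, and positive, in 13 of the 45 genes and in 14.2% of all genes tested.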
